A study of Mus musculus with 4 samples.

Results

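The genes described here are 45 transcripts of the cell division cycle, 20 of which serve DNA replication (S genes) and 25 of which serve the passage through G2 and mitosis (G2/M genes). They were chosen by name, as the rows whose symbol is on the list, out of 32285 genes in the single-cell RNA-Seq (scRNA-Seq) matrices, and all 45 were found. The 4 libraries came from 20-week-old C57BL/6J male mice and were collected at week 2. In each of 2 tissues, fracture callus and trabecular bone, 1 library was from Ctrl mice, which received placebo, and 1 was from mice treated with GCs (prednisolone at 6.25 mg/kg/d, a synthetic glucocorticoid). The labels describe subcutaneous slow-release pellets for both tissues, while the methods describe daily injection for fracture, so the route in callus is not settled. The number of mice behind a library is not given in the sources used here. With 1 library per tissue and treatment there were no replicates, no test between libraries was possible and no p value is given. Intervals are exact 95% intervals and cover counting error only. The comparisons ask which cell classes divide in each tissue, and how the levels in GC libraries stand against control.

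A cell that divides first loads the MCM helicase onto its replication origins, then copies its DNA with the sliding clamp PCNA and a supply of deoxynucleotides, and then condenses, aligns and separates its chromosomes under the control of CDK1 and its cyclins. The transcripts of the replication genes are known to rise towards S phase under E2F factors, and those of the mitotic genes in G2 through a complex that binds the CHR element and NF-Y, the factor of the CCAAT box. In bone marrow the erythroid, myeloid and B-lymphoid precursors are known to divide rapidly, whereas mature neutrophils have left the cycle. In a fracture callus, chondrocytes multiply before they enlarge and become hypertrophic.

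Promoters are shown for 4 G2/M genes and 2 S genes on which the results turn, because the 2 lists differed in their promoter words. Each line gives the 150 bases before the annotated start on the gene's own strand (RefSeq, GRCm38.p6). Capitals mark CCAAT boxes, E2F words and CHR words, on either strand, where the CHR word is TTTGAA and the box is named by its letters.
Cdk1 (chr10:69352913-69353062, minus strand): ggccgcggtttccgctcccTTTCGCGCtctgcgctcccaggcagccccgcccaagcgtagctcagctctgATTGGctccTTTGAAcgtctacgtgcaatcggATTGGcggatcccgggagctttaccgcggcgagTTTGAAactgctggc
Ube2c (chr2:164769779-164769928, plus strand): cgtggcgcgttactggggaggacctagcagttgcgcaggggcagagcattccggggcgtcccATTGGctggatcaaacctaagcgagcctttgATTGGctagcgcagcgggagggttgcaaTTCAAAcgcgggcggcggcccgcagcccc
Top2a (chr11:99024190-99024339, minus strand): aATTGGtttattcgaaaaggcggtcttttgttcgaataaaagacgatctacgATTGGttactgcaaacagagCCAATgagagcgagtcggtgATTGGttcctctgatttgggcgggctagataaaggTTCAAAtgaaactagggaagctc
Mki67 (chr7:135716380-135716529, minus strand): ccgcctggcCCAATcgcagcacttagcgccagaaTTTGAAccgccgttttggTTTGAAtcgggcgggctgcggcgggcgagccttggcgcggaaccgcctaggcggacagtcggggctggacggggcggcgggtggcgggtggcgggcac
Mcm5 (chr8:75109359-75109508, plus strand): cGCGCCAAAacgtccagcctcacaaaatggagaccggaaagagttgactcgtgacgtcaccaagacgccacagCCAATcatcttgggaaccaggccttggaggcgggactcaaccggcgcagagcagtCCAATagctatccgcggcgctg
Pcna (chr2:132253181-132253330, minus strand): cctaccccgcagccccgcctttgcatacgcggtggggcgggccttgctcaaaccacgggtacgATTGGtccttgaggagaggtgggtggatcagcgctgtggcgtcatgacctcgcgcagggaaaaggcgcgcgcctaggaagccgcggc
Promoter windows of 300 bases, 250 before and 50 after the start, were found for 39 of the 45 members. Those of Aurkb, Smc4, Tpx2, Gins2, Mcm4 and Ccna2 were not in the table used. A member was counted when any of its windows held the word, whereas the share over all was taken per window. The 2 are unlike units where a gene has several windows. The CHR word on either strand was in 15 of 21 G2/M genes (71.4%) and in 2 of 18 S genes (11.1%), against 17.9% of all 32851 windows. At least 2 CCAAT words were in 13 of 21 G2/M genes (61.9%) and 8 of 18 S genes (44.4%), against 11.7% of all windows. An E2F word (TTTCCCGC, TTTCGCGC, TTTGCCGC or TTTGGCGC) was in 8 of 18 S genes (44.4%), in 1 of 21 G2/M genes (4.76%), which was Cdk1, and in 2.27% of all windows. These are matches of letters and not evidence of binding. Top2a and Ube2c held 6 CCAAT words each in the whole window, and Cdk1 held all 3 kinds of word.

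After calling and filtering, 6714 control and 6890 GC cells of callus and 3832 control and 4604 GC cells of trabecular bone were analysed, with median depths of 3269 to 6254 UMIs (unique molecular identifiers, by which a captured transcript is counted once) per cell. The GC callus matrix listed only 7762 barcodes and was taken as called by the authors, whereas the others listed every possible barcode. Pairs of libraries shared 6 to 11 cell barcodes. Of 10 textbook glucocorticoid response genes, 7 had log2 ratios of GC over control above 0 in callus and 9 in trabecular bone. Fkbp5, a co-chaperone of the receptor, stood at 19.4, 31.7, 16.2 and 60.4 UMIs per 1000000 (CPM) in the 2 callus libraries (control, then GC) and the 2 trabecular libraries (control, then GC), and Tsc22d3 (GILZ) at 105, 119, 75.4 and 166. Per1 (53.04, 39.4, 85.2 and 96.5 CPM), Ddit4 and Cdkn1a were the 3 below 0 in callus. Zbtb16, Klf9, Sgk1, Dusp1 and Mt2 were above 0 in both tissues. Cells were clustered within a tissue, without the cycle genes, and clusters were named from marker genes. A class name such as "chondrocyte" stands for chondrocyte-like clusters and is not the authors' annotation. Control trabecular bone held 1991 mature neutrophils, but control callus held 1700, so this class does not by itself tell the tissues apart. Control callus held 1951 chondrocytes, in 4 clusters that each carried 24 of 24 chondrocyte markers. The marker count alone does not set chondrocytes apart. In callus the unnamed clusters 21, with endothelial leading genes, and 23, with granule and hemoglobin leading genes, carried 24 and 23 of these markers. Several clusters were nearly all of 1 library, so that treatment and library cannot be told apart in them.

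Over whole libraries the S genes summed to 337, 379.6, 1387 and 1146 CPM in the same order of libraries, and the G2/M genes to 392, 270.4, 2033 and 1667 CPM. The values of single members below follow that order of libraries and are CPM over all cells. All 45 members were lower in control callus than in control trabecular bone, from Rrm2 (ratio 0.0683) to Cdt1 (0.572), and 44 of 45 were lower in GC callus than in GC trabecular bone, the exception being Cdt1. How many of all genes were lower in callus is not given here, so these counts do not set the members apart from other genes. The interval of the ratio of GC over control included 1 for 8 S and 3 G2/M members in callus and for 3 and 2 in trabecular bone, and for these lower and higher refer to the counted values only. Among the genes that license origins, Mcm2, a subunit of the replicative helicase, stood at 10.5, 9.89, 50.3 and 44.6 CPM. Mcm3, another subunit, stood at 11.6, 10.9, 78.7 and 72.7. Mcm4 stood at 9.94, 9.93, 44.3 and 38.4. In callus the log2 ratios of GC over control of these 3 subunits were between -0.06 and 0.00. Mcm5 was at 7.68, 9.296, 65.3 and 58.4 CPM. Mcm6 was at 35.96, 44.7, 88.4 and 72.5. Mcm7, which completes the ring, was at 18.5, 24.9, 127 and 83.2. These 3 stood higher in GC callus than in control callus and lower in GC than in control trabecular bone. Cdt1, which brings the helicase to origins, had 21.4, 30, 37.5 and 29.8 CPM, and its log2 ratio was 0.41 in callus and -0.29 in trabecular bone. Cdc6, its partner in loading, had 2.47, 2.61, 19.7 and 14.97 CPM.

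Of the genes that act at the replication fork, Pcna, the sliding clamp, stood at 63.03, 93.2, 183 and 143 CPM and had the highest log2 ratio of any member in callus (0.53, against -0.35 in trabecular bone). Cdc45, which activates the helicase, stood at 3.28, 2.24, 16.5 and 15.7 CPM. Gins2, a subunit of the same active complex, stood at 5.65, 4.31, 19.2 and 16.9 CPM. The clamp and the activators thus lay on opposite sides of control in GC callus. Tyms, which makes thymidylate, was counted at 8.47, 7.52, 57.9 and 53.9 CPM. Rrm1, the large subunit of ribonucleotide reductase, was counted at 16.6, 15.5, 71.9 and 56.02 CPM. Rrm2, its small subunit, was counted at 8.68, 7.73, 127 and 113 CPM. These enzymes of deoxynucleotide supply were lower in both GC libraries. Dut, which removes dUTP, was at 58.2, 40.3, 173 and 158 CPM and had the lowest callus log2 ratio of the S genes (-0.48). Ung, which cuts uracil out of DNA, was at 3.51, 2.74, 8.43 and 7.35 CPM. Both enzymes that keep uracil out of DNA were lower in both GC libraries. Uhrf1, which maintains DNA methylation behind the fork, had 6.83, 5.43, 56.2 and 32.6 CPM, and its log2 ratio of -0.70 was the lowest of any member in trabecular bone. Hells, a chromatin remodeler, had 4.64, 5.86, 27.4 and 22.8 CPM. Chaf1b, a subunit of the histone chaperone CAF-1, had 3.53, 3.995, 19.04 and 17.3 CPM. Slbp, which binds histone mRNA, had 36.5, 48.6, 116 and 95.3 CPM. Hells, Chaf1b and Slbp, unlike Uhrf1, were higher in GC callus than in control callus.

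Of the G2/M genes, Cdk1, the mitotic kinase, stood at 14.1, 5.71, 59.9 and 57.4 CPM, with a log2 ratio of -0.83 in callus and -0.06 in trabecular bone. Its cyclins had lesser differences in callus. Ccnb1 stood at 8.81, 7.99, 37.1 and 34.1 CPM. Ccnb2 stood at 7.07, 6.197, 79.99 and 68.6 CPM. Ccna2, the cyclin of S phase and G2, stood at 9.12, 6.197, 65.05 and 57.02 CPM. All 3 cyclins were below control in both GC libraries. Ube2c, the ubiquitin-conjugating enzyme of the anaphase-promoting complex, was at 29.1, 12.6, 208 and 206 CPM and had the lowest log2 ratio of any member in callus (-0.95), yet the highest of any member in trabecular bone (-0.01). Cdc20, an activator of that complex, was at 6.78, 3.603, 35.1 and 31.3 CPM. The log2 ratio of Cdc20 was -0.45 in callus and -0.14 in trabecular bone. Aurka, the kinase of spindle poles, was counted at 4.07, 2.39, 18.98 and 16.5 CPM. Aurkb, the kinase of the chromosomal passenger complex, was counted at 4.74, 1.997, 37.7 and 32.8 CPM. Plk1, a mitotic kinase, was counted at 2.52, 1.64, 17.4 and 15.2 CPM. These kinases gave few counts in GC callus, namely 128 UMIs of Aurka, 107 of Aurkb and 88 of Plk1. Bub1, a kinase of the spindle checkpoint, had 3.02, 1.92, 14.2 and 11.4 CPM. Bub1b, another checkpoint protein, had 5.35, 4.07, 25.3 and 18.4 CPM. Both were lower in the GC library of either tissue.

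Birc5 (survivin), a subunit of the passenger complex, stood at 20.3, 11.5, 154 and 140.3 CPM. Cdca8 (borealin), another subunit, stood at 12.8, 5.66, 84.2 and 72.3 CPM. In callus these 2 subunits had log2 ratios of -0.61 and -0.74. Among spindle genes, Kif11, the motor that separates the poles, was at 8.88, 5.75, 51.3 and 37.4 CPM. Kif23, a motor of cytokinesis, was at 8.86, 7.62, 47.6 and 41.7 CPM. Tpx2, which nucleates microtubules, was at 15.7, 11.7, 51.1 and 41.5 CPM. The 3 lay below control in both tissues. Nusap1, a spindle-associated protein, was counted at 11.7, 9.501, 90.04 and 70.5 CPM. Hmmr, which binds hyaluronan and the spindle, was counted at 6.78, 5.13, 33.1 and 28.4 CPM. Tacc3, which stabilizes spindle fibers, was counted at 10.3, 8.4, 45.5 and 38.2 CPM. The log2 ratios of these 3 lay between -0.33 and -0.19 in both tissues. Of the genes that act on chromosomes, Mki67, the coat of mitotic chromosomes detected as Ki-67, had 38.04, 29.9, 254 and 174 CPM. Top2a, the topoisomerase that untangles sister chromatids, had 38.4, 23.6, 209 and 151 CPM. Smc4, a core subunit of condensin, had 42.2, 42.02, 161 and 126 CPM. Mki67 and Top2a were lower in both GC libraries, while Smc4 was level in callus. Cenpa, the centromeric histone, was at 55.8, 36.3, 143 and 116 CPM. Cenpe, a kinetochore motor, was at 8.27, 6.403, 36.9 and 29.8 CPM. Cenpf, a kinetochore protein, was at 19.3, 12.5, 72.9 and 51.7 CPM. The centromere genes were all lower with GC in both tissues.

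**Figure D1:**
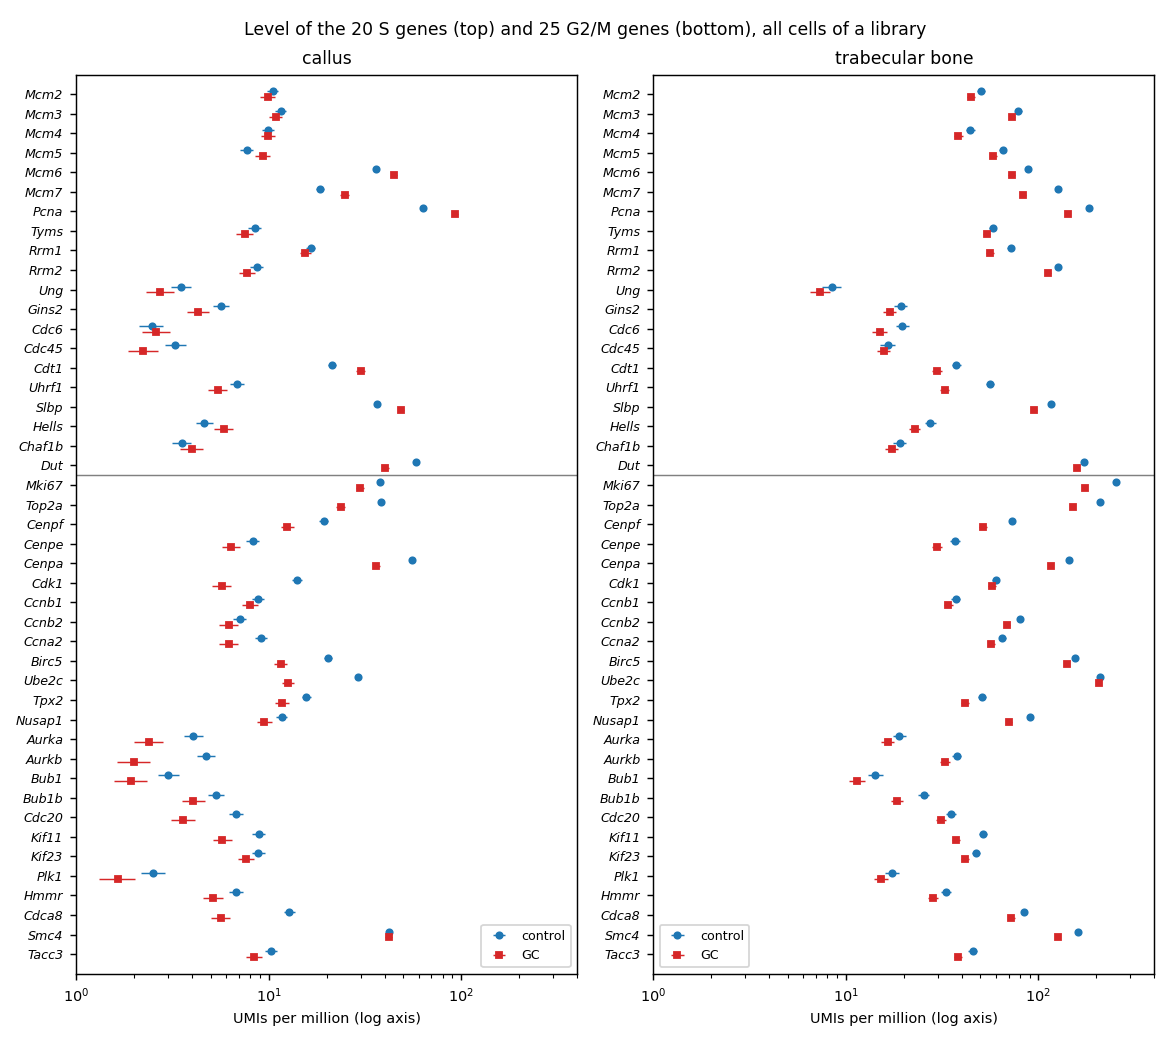
Level of each S gene (above the line) and G2/M gene (below it) in all cells of a library, in CPM on a log axis, with exact Poisson 95% intervals, for callus (left) and trabecular bone (right). All 25 G2/M genes lie below control in GC callus, whereas 9 S genes, among them Pcna, Cdt1 and Slbp, lie above it, and in trabecular bone all 45 genes lie below control.

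In trabecular bone the members were concentrated in hematopoietic precursor classes. Levels below are the list sum in a class, with its exact Poisson interval. The highest was the early erythroid class (137 control and 113 GC cells), where the S genes stood at 5738 CPM (5638 to 5839) in control and 4946 CPM (4835 to 5060) in GC, and the G2/M genes at 7237 CPM (7125 to 7351) and 7382 CPM (7246 to 7520). Next were pro-B or pre-B cells, found in the control library only as 217 cells of 1 cluster, with 3236 CPM (3146 to 3329) of S genes and 4622 CPM (4514 to 4732) of G2/M genes. The monocyte class, granulocyte-monocyte progenitors or promyelocytes, and hematopoietic stem or progenitor cells stood at 2132, 2460 and 2404 CPM of S genes and at 2997, 2213 and 2310 CPM of G2/M genes in control. In immature neutrophils the G2/M genes stood at 2533 CPM (2496 to 2570) and the S genes at 877 CPM (855 to 899). Mature neutrophils, which do not divide, served as background, with 106 CPM (99.6 to 112) of S genes and 132 CPM (126 to 139) of G2/M genes in control. Late erythroid cells held 47.6 CPM of S genes, below that background, and 567 of G2/M genes, of which Ube2c, Nusap1 and Mki67 made 80.8% of the UMIs.

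To count cells at equal depth, each cell was thinned to 1000 UMIs, which left out 97 to 705 shallower cells per library, and a cell met the cycling mark with at least 2 different S genes or at least 2 different G2/M genes. Among early erythroid cells 128 of 130 (98.5%, 94.5 to 99.8) of control and 89 of 92 (96.7%, 90.8 to 99.3) of GC met it. Among granulocyte-monocyte progenitors or promyelocytes 84 of 100 (84%, 75.3 to 90.6) and 99 of 123 (80.5%, 72.4 to 87.1) did. Stem or progenitor cells followed with 37 of 52 (71.2%, 56.9 to 82.9) and 42 of 66 (63.6%, 50.9 to 75.1). The monocyte class held 2 unlike clusters. In cluster 9, whose promyelocyte markers ran second at 0.926 of its monocyte markers, 107 of 116 (92.2%, 85.8 to 96.4) and 129 of 145 (88.97%, 82.7 to 93.6) of cells met the mark. In cluster 7 the counts were 54 of 197 (27.4%, 21.3 to 34.2) and 70 of 192 (36.5%, 29.6 to 43.7). Among pro-B or pre-B cells of control 76 of 214 (35.5%, 29.1 to 42.3) did, a lower share than their list level would place them among the classes. Mature neutrophils had median depths of 5281 and 3538 UMIs, against 8719 and 4484 in early erythroid cells. They gave 32 of 1967 (1.63%, 1.11 to 2.29) and 46 of 1832 (2.51%, 1.84 to 3.33), which served as the background of the mark. Their G2/M UMIs in control were led by Cenpa, Smc4 and Kif23 (59.6% together), and those of the whole library by Mki67, Top2a and Ube2c. The part of free RNA in this background was not tested. Without thinning the neutrophil shares were 19.8% and 17.7%, and the early erythroid share was 100% in both libraries.

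In callus the cells with cycle transcripts were fewer and more scattered. The highest level was in 52 control and 67 GC cells of the late erythroid class (cluster 22), with 4278 CPM (4016 to 4553) of S genes and 11057 CPM (10633 to 11493) of G2/M genes in control. At least 50% of its G2/M UMIs lay in 5 of the 52 control cells and at least 50% of its S UMIs in 4. In control 10 cells held 95.4% of its S UMIs. After thinning, however, 24 of 47 (51.1%) of its control cells and 19 of 42 (45.2%) of its GC cells had at least 2 G2/M genes. This cluster shared its name with a class of trabecular bone that held hardly any S genes, and the names do not make the 2 the same cells. Pro-B or pre-B cells (43 in control, 10 in GC) stood at 4202 CPM (3912 to 4508) of G2/M genes in control. Early erythroid cells (20 and 11) and granulocyte-monocyte progenitors or promyelocytes (15 and 11) stood at 3732 and 2641 CPM of G2/M genes in control. Of the skeletal and resident classes, osteoclasts had 1098 CPM (1055 to 1143), endothelial cells 1325 CPM (1214 to 1444), macrophages 946 CPM (872 to 1025), stromal or skeletal progenitor cells 316 CPM (301 to 332) and chondrocytes 290.1 CPM (285 to 295). Hypertrophic chondrocytes (91.8 CPM) and osteoblasts or osteocytes (102 CPM) were below mature neutrophils (181 CPM). The chondrocyte class had 1951 cells with a median of 25329 UMIs, against 1305 in mature neutrophils, and held 64.7% of all UMIs of the control library. It so supplied 47% of the library's S UMIs and 47.8% of its G2/M UMIs despite its modest level.

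In thinned control callus, 10 of 15 (66.7%, 38.4 to 88.2) of granulocyte-monocyte progenitors or promyelocytes had at least 2 G2/M genes. So did 12 of 20 (60%, 36.05 to 80.9) of early erythroid and 24 of 47 (51.1%, 36.06 to 65.9) of late erythroid cells. Pro-B or pre-B cells gave 10 of 42 (23.8%, 12.05 to 39.45). Of the skeletal and resident classes, osteoclasts gave 20 of 108 (18.5%, 11.7 to 27.1). Endothelial cells gave 9 of 50 (18%, 8.58 to 31.4) and macrophages 10 of 81 (12.3%, 6.08 to 21.5). Osteoclasts are formed by fusion of precursors, and the members found in them were counted per barcode. Mature neutrophils gave 14 of 1414 (0.99%, 0.542 to 1.66) in control and 22 of 1024 (2.15%, 1.35 to 3.23) in GC. The GC count rested on cluster 12, which was led by Ngp, Camp and Ltf, markers of immature neutrophils, and gave 13 of the 22 cells. Without it mature neutrophils gave 11 of 1293 (0.851%, 0.425 to 1.52) in control and 9 of 843 (1.07%, 0.489 to 2.02) in GC. Hypertrophic chondrocytes of control, at 4 of 420 (0.952%, 0.26 to 2.42), were within the interval of that background. Over all callus cells 246 of 6253 (3.93%, 3.47 to 4.45) of control and 207 of 6185 (3.35%, 2.91 to 3.83) of GC had at least 2 G2/M genes, with overlapping intervals, and the share with at least 2 genes of either list was 8.25% and 9.49%. Without thinning, at unequal depths, the G2/M shares were 22.6% and 17.5%. In several small classes the members came from few cells. At least 50% of the G2/M UMIs, for instance, lay in 3 of 54 endothelial cells, 3 of 84 macrophages and 4 of 279 stromal cells in control callus.

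**Figure D2:**
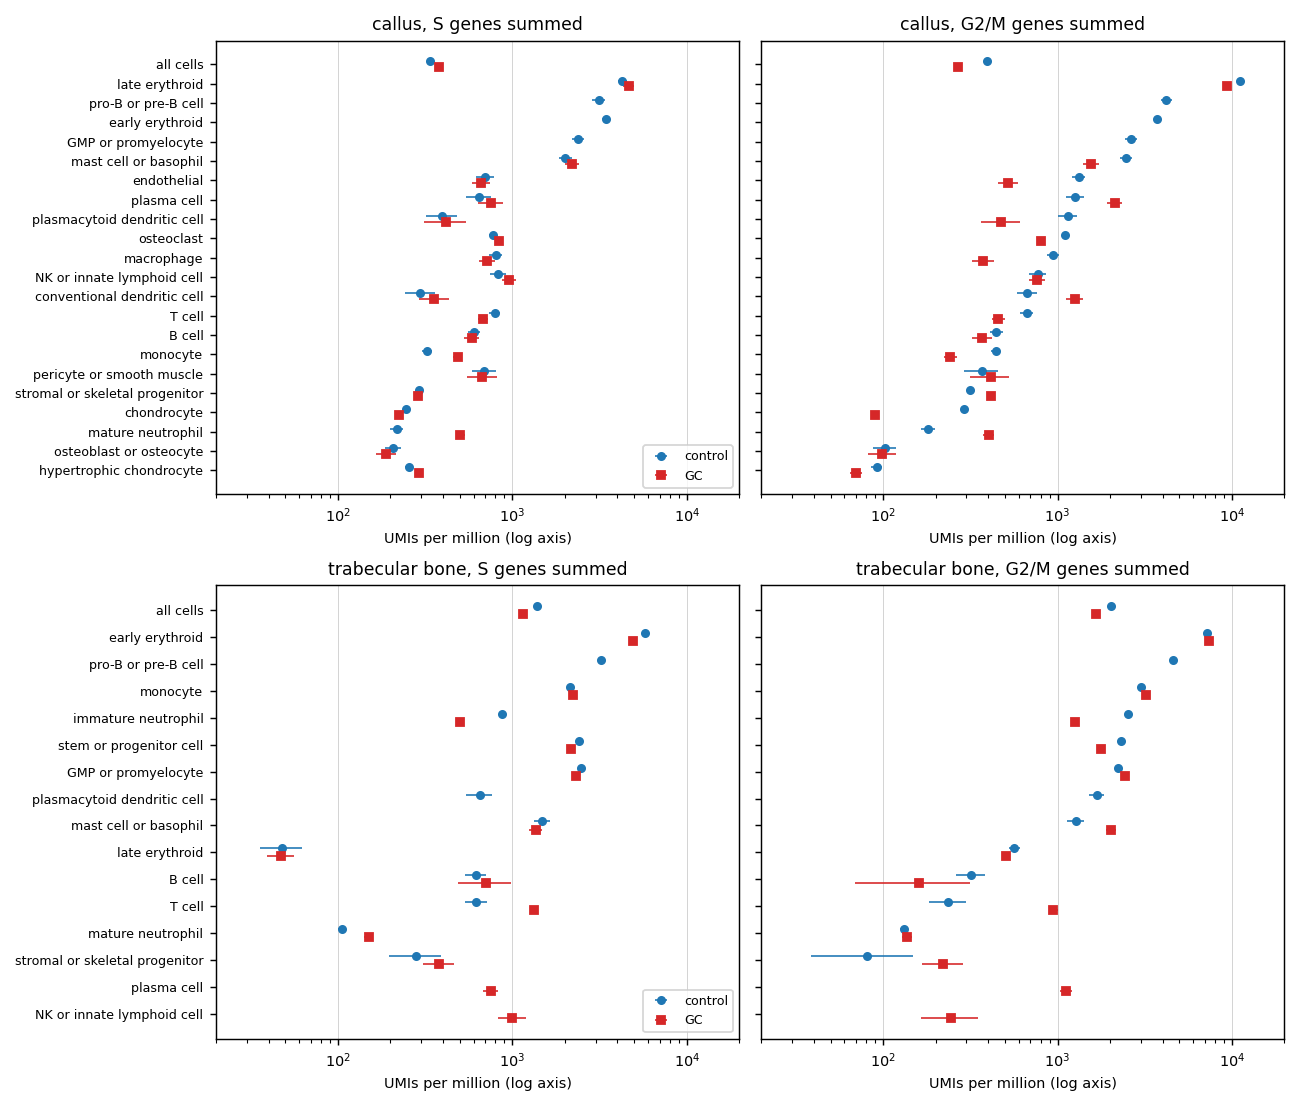
Summed level of the S genes (left) and the G2/M genes (right) in each class with at least 15 cells, in CPM on a log axis with exact Poisson 95% intervals, for callus (top) and trabecular bone (bottom). Early erythroid cells top trabecular bone with at least 4946 CPM in either list and library, while callus chondrocytes lie at 290.1 CPM of G2/M genes in control and 90.4 in GC.

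**Figure D3:**
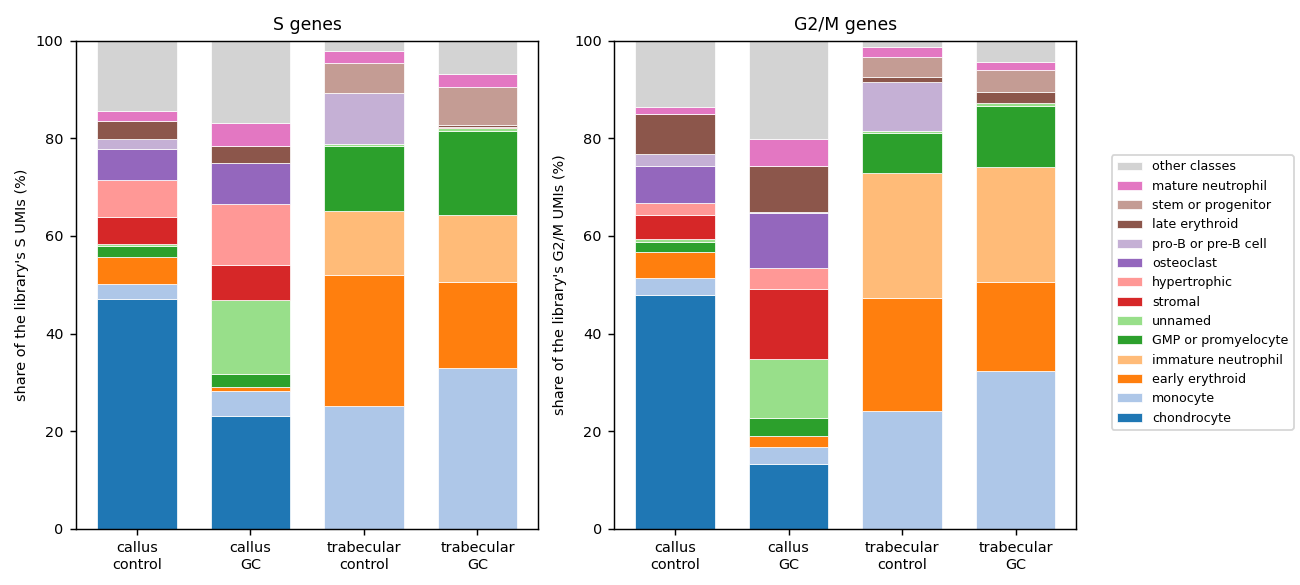
Share of a library's S UMIs (left) and G2/M UMIs (right) contributed by each class, as stacked bars that sum to 100%. Chondrocytes supply 47.8% of the G2/M UMIs of control callus and 13.2% in GC callus. Their part of all UMIs is also smaller in GC callus (39.5%, against 64.7% in control), and the unnamed cluster 2 is not counted among them. Pro-B or pre-B cells supply 10.1% of the G2/M UMIs in control trabecular bone and are missing from GC trabecular bone.

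The control libraries of the 2 tissues were set side by side by class, and tissue and library cannot be told apart in them. Over all cells the S genes had 337 CPM in callus and 1387 in trabecular bone (ratio 0.243, interval 0.239 to 0.247) and the G2/M genes 392 CPM in callus and 2033 in trabecular bone (ratio 0.193, interval 0.19 to 0.195). Among precursor classes common to both the gap varied. Early erythroid cells had 3732 CPM in callus and 7237 in trabecular bone (ratio 0.516, interval 0.49 to 0.543) of G2/M genes and 3442 CPM in callus and 5738 in trabecular bone (ratio 0.6, interval 0.568 to 0.633) of S genes. Pro-B or pre-B cells had 4202 CPM in callus and 4622 in trabecular bone (ratio 0.909, interval 0.843 to 0.979) of G2/M genes, and granulocyte-monocyte progenitors or promyelocytes had 2641 CPM in callus and 2213 in trabecular bone (ratio 1.19, interval 1.099 to 1.29). In control callus these 3 classes had 20, 43 and 15 cells, and at least 50% of the G2/M UMIs lay in 3 cells of each. The early erythroid cluster of callus had 2 megakaryocyte markers among its 10 leading genes, and those of trabecular bone had 0. Shared names do not make them the same cells. The monocyte class stood further apart, with 444 CPM in callus and 2997 in trabecular bone (ratio 0.148, interval 0.139 to 0.157). In trabecular bone 11700 of its 16617 G2/M UMIs lay in cluster 9, whose promyelocyte markers ran second at 0.926 of its monocyte markers. In callus Cenpa alone made 76.6% of the value, so unlike cells may be compared under this name. T cells leaned the other way, with 666 CPM of G2/M genes in callus and 236 in trabecular bone (ratio 2.82, interval 2.19 to 3.68). So did late erythroid cells (ratio 19.5), stromal or skeletal progenitor cells (3.94, on 10 UMIs in trabecular bone) and mast cells or basophils (1.94). B cells (1.405) and mature neutrophils (1.37) did too, while plasmacytoid dendritic cells (0.683) did not. The ratio over all cells thus does not stand for every shared class.

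In GC callus the 2 lists parted. The S genes stood at 337 CPM in control and 379.6 with GC (ratio 1.13, interval 1.11 to 1.15), and the G2/M genes at 392 CPM in control and 270.4 with GC (ratio 0.69, interval 0.676 to 0.703). Droplets without a cell in control callus also gave 337 CPM of S genes, and 259 CPM of G2/M genes. Those of GC callus were not analysed, so the part of free RNA in these ratios was not tested. At the class makeup of control callus, with unnamed cells as a class, the GC class levels gave ratios of 0.968 (S) and 0.572 (G2/M). Control class levels in the GC makeup gave ratios of 1.07 (S) and 1.05 (G2/M). The S ratio thus lay above 1 with class makeup alone and below 1 with class levels alone. The clusters within a class were not held fixed in these ratios. All 25 G2/M genes had log2 ratios below 0, and for 22 of them the whole counting interval lay below a ratio of 1. Of the 20 S genes 11 were below 0 and 9 above, with whole intervals below 1 for 5 and above 1 for 7. The share of all genes with such intervals is not given here, so these counts do not set the members apart from other genes. A member was called when its log2 ratio of CPM plus 5 passed 1.5-fold, which is a size and not a test. In these terms 5 of 45 members were lower, against 1.57% of the 15120 genes with at least 50 UMIs over both libraries, and 0 were higher, against 1.96%. The 5 were Ube2c (-0.95), Cdk1 (-0.83), Cdca8 (-0.74), Birc5 (-0.61) and Top2a (-0.60). The median log2 ratio was -0.03 for the S genes and -0.31 for the G2/M genes, beside 0.03 over all genes. The S ratio of all callus cells turned below 1 (log2 ratio -2.14) when the mature neutrophil level without cluster 12 was subtracted from both libraries. This alternative was chosen after seeing the data. The level was 228.6 CPM in control and 355 CPM in GC, near the library level itself. In GC it exceeded the whole S level of some classes, such as chondrocytes (222 CPM), so the -2.14 is not a measure of the S genes.

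Chondrocytes (1951 control and 942 GC cells) gave 14969 of the 31289 G2/M UMIs of control callus and 1911 of the 14484 of GC callus. The class held 64.7% of all UMIs of control callus and 39.5% of those of GC callus. In chondrocytes the G2/M genes stood at 290.1 CPM in control and 90.4 with GC (ratio 0.312, interval 0.297 to 0.327), and the S genes at 245 CPM in control and 222 with GC (ratio 0.908, interval 0.878 to 0.939). The direction of the S genes turned when cells were thinned to 1000 UMIs. In chondrocytes 18 of 25 G2/M genes and 1 of 20 S genes were lower past 1.5-fold, 19 of 45 members, against 2.60% of 13016 genes, and 0 members were higher, against 1.51%. All 25 G2/M genes had log2 ratios below 0, with a median of -0.80, and the S genes had a median of -0.15, beside 0.00 over all genes. Mki67 had the lowest ratio (23.7 and 3.45 CPM, log2 ratio -1.76), followed by Top2a (30.9 and 5.77 CPM, log2 ratio -1.74) and Cdk1 (14.5 and 1.84 CPM, log2 ratio -1.51). At the other end were Pcna (44.9 and 56.1 CPM, log2 ratio 0.29), Mcm6 (30.1 and 36.9 CPM, log2 ratio 0.26) and Mcm7 (11.4 and 14.3 CPM, log2 ratio 0.24). Mcm5 stood at 2.83 and 0.946 CPM. The 2 ends of this order were G2/M genes and S genes respectively. At 1000 UMIs per cell, 57 of 1947 (2.93%, 2.23 to 3.78) of control and 3 of 940 (0.319%, 0.0659 to 0.93) of GC chondrocytes had at least 2 G2/M genes, and the interval of the GC share overlapped that of the mature neutrophils of GC callus taken without cluster 12. Without thinning the shares were 39.1% and 28.98%. The shares with at least 2 S genes were 48 of 1947 (2.46%, 1.82 to 3.25) and 24 of 940 (2.55%, 1.64 to 3.77). The class median depth was 25329 UMIs in control and 20993 in GC.

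The G2/M transcripts of callus chondrocytes were carried by few cells. When the cycle genes were allowed into the clustering, 67 control and 10 GC cells of callus formed a cluster of their own, which included 63 of 1951 control chondrocytes (3.23%, 2.49 to 4.11) and 6 of 942 GC chondrocytes (0.637%, 0.234 to 1.38). The 63 cells held 76.99% of the G2/M UMIs of control chondrocytes, at 4910 CPM, and the 6 held 30.8% of those of GC chondrocytes, at 2473 CPM. The chondrocytes outside it stood at 69.9 CPM in control and 63.3 in GC. Within the class the clusters differed too. Cluster 8, led by Ucma, Sfrp5, H19 and Chrdl2, had 603 control and 96 GC cells and held 33.7% of all G2/M UMIs of control callus, with 646 and 207 CPM (ratio 0.321, interval 0.294 to 0.349). Cluster 7 had 207 and 88.8 CPM (ratio 0.429, interval 0.393 to 0.467). Cluster 6 had 54.9 and 52.9 CPM (ratio 0.964, interval 0.848 to 1.09), and cluster 11 73.8 and 79.3 CPM (ratio 1.07, interval 0.935 to 1.23), and in these 2 the interval included 1. Both had a hypertrophic marker among their 10 leading genes, Col10a1 in cluster 6 and Ihh in cluster 11. Cluster 11 had 0 chondrocyte markers among those genes. Without cluster 8 the class ratio of the G2/M genes was 0.582 and that of the S genes 1.10. Cluster 2, with 10 control and 1169 GC cells, carried 24 of 24 chondrocyte markers but had none of them, and 1 stromal marker (Col6a3), among its 10 leading genes, and was left unnamed. Counted as chondrocytes, it moved the G2/M ratio to 0.396 and the S ratio to 1.09. In it 34 of 1047 (3.25%, 2.26 to 4.51) of thinned GC cells had at least 2 G2/M genes. The part of library-specific clusters in these values was not tested.

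**Figure D4:**
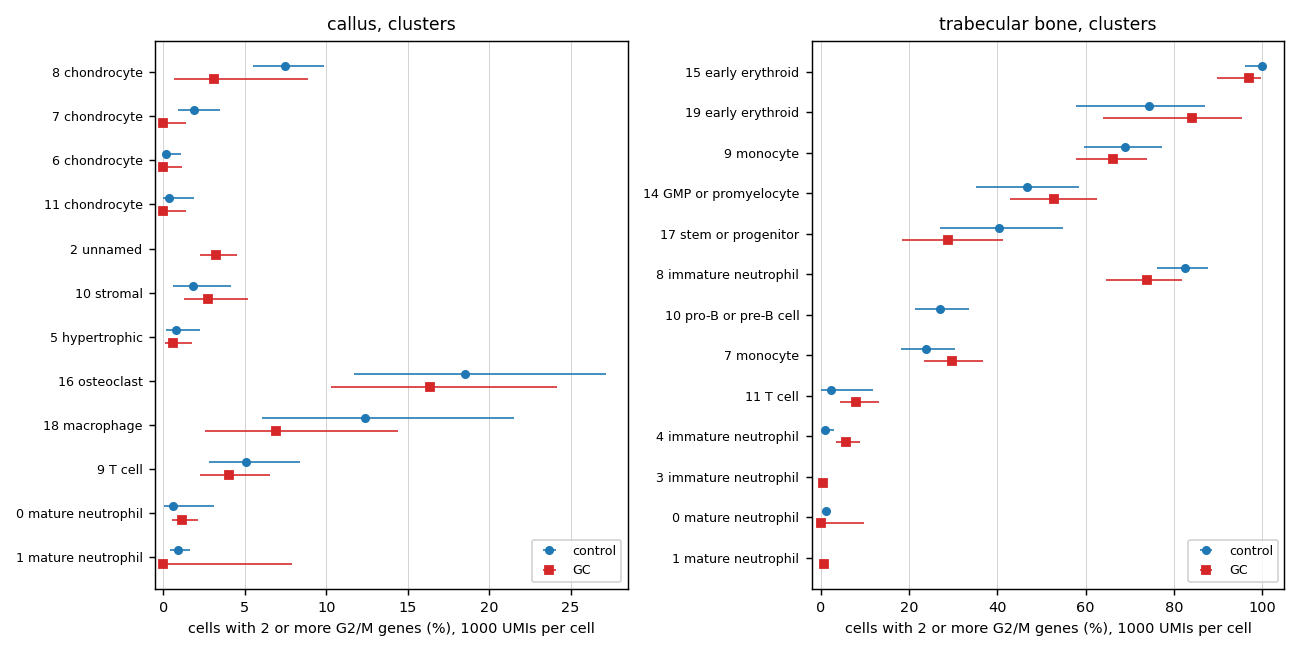
Share of cells with at least 2 different G2/M genes in chosen clusters after thinning to 1000 UMIs, with Clopper-Pearson 95% intervals, for callus (left) and trabecular bone (right). In callus cluster 8 (603 control and 96 GC cells) holds 7.46% in control and 3.13% in GC, with intervals that overlap. The control interval does not reach those of the mature neutrophil clusters 0 and 1 of control. Early erythroid cluster 15 of trabecular bone lies at 100% and 97.01%.

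Other callus classes did not all move with the chondrocytes. Of 18 classes with at least 15 cells in both libraries, the whole counting interval of the G2/M ratio lay below 1 in 11, above 1 in 4 and across 1 in 3, and that of the S ratio below 1 in 2, above 1 in 5 and across 1 in 11. These intervals do not cover which cells were captured, so the tally does not settle a direction for a class. In control at least 50% of the G2/M UMIs lay in 3 of 54 endothelial cells and 2 of 21 plasma cells, but in 76 of 588 B cells. Osteoclasts, the bone-resorbing cells, had 1098 and 802 CPM (ratio 0.731, interval 0.686 to 0.778) of G2/M genes and 769.5 and 834 CPM (ratio 1.08, interval 1.01 to 1.16) of S genes in control and GC. In osteoclasts 5 of 38 members were lower past 1.5-fold, against 5.07% of genes, and 1 higher, against 5.27%, with Ube2c (144 and 68.9 CPM, log2 ratio -1.01), Cdca8 (32.1 and 16.01 CPM, log2 ratio -0.82) and Tyms (19.3 and 9.22 CPM, log2 ratio -0.77) lowest and Rrm2 (14.7 and 24.7 CPM, log2 ratio 0.59), Slbp and Mcm7 highest. In osteoclasts Mki67 stood at 77.5 and 69.9 CPM, Top2a at 109.7 and 83.4, Pcna at 122 and 150.4 and Mcm5 at 36.2 and 50.9. Thinned shares of osteoclasts with G2/M genes were 18.5% and 16.4%. The intervals of those shares overlapped widely.

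Macrophages had 946 and 374 CPM (ratio 0.395, interval 0.334 to 0.467) of G2/M genes, with 6 of 9 members lower, against 9.67% of genes. Birc5 was lowest (69.6 and 14 CPM, log2 ratio -1.97), then Ube2c (72.8 and 24.01 CPM, log2 ratio -1.42) and Top2a (111 and 54.02 CPM, log2 ratio -0.97), and Mki67 stood at 91.8 and 52.02 CPM and Mcm5 at 28.5 and 20.01. Pcna (223 and 304 CPM, log2 ratio 0.44) and Cdt1 (42.7 and 58.02 CPM, log2 ratio 0.40) were highest, followed by Slbp. Endothelial cells had 1325 and 519 CPM (ratio 0.392, interval 0.334 to 0.459), with 5 of 7 members lower, against 8.40% of genes, led by Ube2c (125 and 11.3 CPM, log2 ratio -2.99), Top2a (109 and 38.5 CPM, log2 ratio -1.39) and Mki67 (125 and 45.4 CPM, log2 ratio -1.36), while Slbp (81.4 and 97.5 CPM, log2 ratio 0.25) and Pcna (142 and 163 CPM, log2 ratio 0.19) were highest and Mcm5 stood at 17.8 and 27.2 CPM. Control gave most of the G2/M UMIs in macrophages (598 and 187) and endothelial cells (521 and 229), so a member could pass the minimum of 50 UMIs through control alone, and at least 50% of the G2/M UMIs lay in 2 to 4 cells of each library in these 2 classes. The unnamed cluster 21, with endothelial leading genes, held 1 control and 128 GC cells and was not counted as endothelial. Its GC cells had 548 G2/M UMIs, at least 50% of them in 22 cells. The endothelial ratio with that cluster included was not tested. After thinning, 10 of 81 (12.3%, 6.08 to 21.5) of control and 6 of 87 (6.9%, 2.57 to 14.4) of GC macrophages had at least 2 G2/M genes. In endothelial cells the counts were 9 of 50 (18%, 8.58 to 31.4) and 6 of 75 (8%, 2.99 to 16.6). The intervals overlapped in both classes. Stromal or skeletal progenitor cells (279 and 327 cells, cluster 10) went the other way, with 316 and 415 CPM (ratio 1.31, interval 1.23 to 1.402) of G2/M genes and 293 and 289 CPM (ratio 0.985, interval 0.916 to 1.06) of S genes. In stromal cells 4 of 33 members were higher, against 2.32% of genes. These were Hmmr (4.19 and 19.03 CPM, log2 ratio 1.39), Cenpf (15.9 and 35.3 CPM, log2 ratio 0.94), Cenpe (7.58 and 15.9 CPM, log2 ratio 0.73) and Ccnb1. Cdt1, Ube2c and Mcm3 were lowest there, and Mki67 stood at 22.3 and 32.7 CPM, Top2a at 35.1 and 29.1, Pcna at 67.2 and 64.6 and Mcm5 at 3.99 and 1.19. At least 50% of the stromal G2/M UMIs came from 4 cells in control and 3 in GC, and the cluster formed by cycle genes took 4 stromal cells of each library, with 57.2% and 54.8% of the stromal G2/M UMIs. Chondrocyte markers ran second in cluster 10, at 0.959 of its stromal markers. The stromal ratio turned below 1 when cells were thinned to 1000 UMIs.

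Hypertrophic chondrocytes had 91.8 and 69.8 CPM (ratio 0.761, interval 0.682 to 0.848) of G2/M genes and 254 and 291 CPM (ratio 1.15, interval 1.08 to 1.21) of S genes, and 3 of 23 members were lower, against 3.98% of genes, namely Cenpa (14 and 5.301 CPM, log2 ratio -0.88), Top2a and Ube2c. Mcm7, Cdt1 and Ccnb1 were highest, and Mki67 stood at 3.44 and 4.72 CPM, Top2a at 7.12 and 2.88, Pcna at 54.4 and 74.3 and Mcm5 at 2.09 and 4.03. This direction of the G2/M genes turned when cells were thinned, and the 2 clusters of the class differed there. Cluster 14, with a median of 802 UMIs and led by Gm26917, Lars2, AY036118 and Gm42418, lost 87 control and 84 GC cells to thinning, and 1 of 35 (2.86%, 0.0723 to 14.9) and 6 of 57 (10.5%, 3.96 to 21.5) of the rest had at least 2 G2/M genes. In cluster 5 the thinned shares were 3 of 385 (0.779%, 0.161 to 2.26) and 3 of 493 (0.609%, 0.126 to 1.77), and the G2/M genes had 88 and 62.02 CPM (ratio 0.705, interval 0.628 to 0.79). In callus monocytes the G2/M genes stood at 444 and 243 CPM (ratio 0.548, interval 0.492 to 0.609), but Cenpa alone, at 340 and 154 CPM, made 76.6% of the control value. In monocytes Mki67 stood at 12.2 and 16.2 CPM, Top2a at 6.29 and 3.34, Pcna at 145 and 209 and Mcm5 at 4.72 and 5.24, and Cdt1 had the highest ratio (29.5 and 89.1 CPM, log2 ratio 1.45). Mature neutrophils of callus stood at 181 and 404 CPM (ratio 2.23, interval 1.98 to 2.505) of G2/M genes. Without cluster 12 their ratio was 0.943. That cluster was led by the granule genes Ngp, Camp and Ltf, which are markers of immature neutrophils. The class value with it therefore does not stand for mature neutrophils alone. Over all mature neutrophils of callus Mki67 stood at 8.97 and 77.5 CPM, Top2a at 6.11 and 55.5, Pcna at 48.9 and 96.8 and Mcm5 at 1.22 and 16.8. In cluster 12 3 of 121 (2.48%, 0.514 to 7.08) of control and 13 of 181 (7.18%, 3.88 to 11.97) of GC cells had at least 2 G2/M genes after thinning. T cells of callus had 666 and 458 CPM (ratio 0.688, interval 0.611 to 0.775) of G2/M genes, and in them Mki67 stood at 28.7 and 33.1 CPM, Top2a at 35.6 and 29.8, Pcna at 153 and 136 and Mcm5 at 27.6 and 18.2. The late erythroid class of callus had 11057 and 9400 CPM (ratio 0.85, interval 0.796 to 0.908) of G2/M genes and 4278 and 4642 CPM (ratio 1.08, interval 0.983 to 1.197) of S genes.

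In GC trabecular bone both lists were lower. The S genes stood at 1387 CPM in control and 1146 with GC (ratio 0.826, interval 0.815 to 0.837) and the G2/M genes at 2033 CPM in control and 1667 with GC (ratio 0.82, interval 0.811 to 0.829). All 45 members had log2 ratios below 0, with whole intervals below 1 for 17 of 20 S genes and 23 of 25 G2/M genes. For these intervals too the share of all genes is not given, so the counts describe the members only. Only Uhrf1 passed 1.5-fold, 1 of 45 lower against 1.82% of 12128 genes, and 0 were higher, against 1.52%. The median log2 ratio was -0.18 for the S genes and -0.21 for the G2/M genes, beside -0.02 over all genes. Pro-B or pre-B cells, of which GC trabecular bone had 0 among 4604 cells (a count that allows a share of up to 0.0652%), supplied 10.3% of the S UMIs and 10.1% of the G2/M UMIs of control. At the class makeup of control, with these cells kept at their control level, GC class levels gave ratios of 0.9264 (S) and 0.8985 (G2/M). Control class levels in the GC makeup gave ratios of 0.905 (S) and 0.974 (G2/M). These ratios held the classes fixed but not the clusters within them. Immature neutrophils supplied 25.7% of the G2/M UMIs of control, and their cluster 3 had 5 control and 742 GC cells. The GC class levels are therefore not free of makeup, and its part in them was not tested.

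Precursor classes were also compared 1 by 1. In early erythroid cells the G2/M genes had 7237 and 7382 CPM (ratio 1.02, interval 0.996 to 1.04) and the S genes 5738 and 4946 CPM (ratio 0.862, interval 0.838 to 0.887). All 20 S genes were below a log2 ratio of 0, and 2 of 45 members passed 1.5-fold downwards, against 3.39% of genes, Cdc6 (117 and 71.2 CPM, log2 ratio -0.68) and Uhrf1 (286 and 189 CPM, log2 ratio -0.59). Mcm7 came next, while Cdk1 (169 and 235 CPM, log2 ratio 0.46), Ccnb1 and Hmmr were highest. In early erythroid cells Mki67 stood at 1453 and 1345 CPM, Top2a at 615 and 609, Pcna at 648 and 563 and Mcm5 at 237 and 231. Granulocyte-monocyte progenitors or promyelocytes had 2213 and 2448 CPM (ratio 1.11, interval 1.07 to 1.15) of G2/M genes, and the monocyte class 2997 and 3197 CPM (ratio 1.07, interval 1.04 to 1.09), with no member of either class past 1.5-fold. Over all genes 2.06% were lower and 1.89% higher in the progenitors, and 1.89% and 1.24% in the monocyte class. The count of 0 among 45 members was thus near the background in either class. Cdc20 (34.05 and 53.5 CPM in progenitors, 52.5 and 69.2 in monocytes) had the highest ratio in both, and Mcm7 (242 and 176 and 189.5 and 169.9) the lowest. In the progenitors Mki67 stood at 137 and 120.2 CPM, Top2a at 217 and 181, Pcna at 254 and 218 and Mcm5 at 119 and 104, and in the monocyte class Mki67 stood at 319 and 313 CPM, Top2a at 347 and 344, Pcna at 303 and 285 and Mcm5 at 124 and 139. In that class cluster 9 had 3587 and 3314 CPM (ratio 0.924, interval 0.901 to 0.947) and cluster 7 2153 and 2979 CPM (ratio 1.38, interval 1.33 to 1.44), in opposite directions. Stem or progenitor cells (52 and 66 cells) had 2310 and 1776 CPM (ratio 0.769, interval 0.729 to 0.811), with 7 of 41 members lower, against 3.69% of genes. Hmmr (37.02 and 13.4 CPM, log2 ratio -1.19), Kif11 (70.7 and 37.8 CPM, log2 ratio -0.82) and Mki67 (178 and 104 CPM, log2 ratio -0.74) were lowest there, Mcm2, Chaf1b and Dut were highest, and Top2a stood at 310.4 and 206 CPM, Pcna at 278 and 211 and Mcm5 at 112 and 99.9.

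Immature neutrophils stood further apart, with 2533 and 1264 CPM (ratio 0.499, interval 0.488 to 0.51) of G2/M genes and 877 and 503 CPM (ratio 0.574, interval 0.554 to 0.595) of S genes. Of 44 members tested 35 (11 S and 24 G2/M genes) were lower past 1.5-fold, against 6.97% of genes, and 0 were higher, against 5.91%. Mcm7 (77.8 and 30.6 CPM, log2 ratio -1.22), Mki67 (282 and 122 CPM, log2 ratio -1.18) and Top2a (249 and 108 CPM, log2 ratio -1.17) were lowest, and Chaf1b (11.8 and 9.61 CPM, log2 ratio -0.20), Mcm2 and Cdt1 highest. Pcna stood at 126 and 74.3 CPM and Mcm5 at 43.9 and 25.96. The class, however, had 516 cells in control and 1243 in GC, and 742 of the latter were cluster 3, led by Mmp8, which held 5 control cells and in which 7 of 742 (0.943%, 0.38 to 1.93) of thinned cells met the cycling mark. Cluster 4 (297 and 346 cells) went the other way, with 198 and 380.3 CPM (ratio 1.92, interval 1.74 to 2.12) of G2/M genes, and 3 of 297 (1.01%, 0.209 to 2.92) of its control and 20 of 346 (5.78%, 3.57 to 8.79) of its GC cells had at least 2 G2/M genes after thinning. Without cluster 3 the class ratios were 0.851 for G2/M and 0.927 for S. In clusters 8, 16 and 26 alone (214 and 155 cells), where 86.5% to 94.4% of cells met the mark, they were 0.974 and 1.11. The share of immature neutrophils meeting the mark was 193 of 515 (37.5%, 33.3 to 41.8) in control and 165 of 1243 (13.3%, 11.4 to 15.3) in GC, whereas within cluster 8 it was 156 of 177 (88.1%, 82.4 to 92.5) and 96 of 111 (86.5%, 78.7 to 92.2).

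T cells of trabecular bone (47 and 165 cells) stood higher with GC, at 236 and 947 CPM (ratio 4.01, interval 3.15 to 5.19) of G2/M genes and 619 and 1323 CPM (ratio 2.14, interval 1.83 to 2.505) of S genes. Of 24 members tested 21 were higher past 1.5-fold, against 12.6% of genes. The class had 292458 UMIs in control and 1316251 in GC, so a member could pass the minimum of 50 UMIs through GC alone, and 11 of the 24 had at most 3 UMIs in control. The count is therefore a description of members selected in part by their GC level. Uhrf1, Ccna2 and Cdca8 had 0 UMIs in them, and against a floor of 3 counts over the class they were at least 4.22-fold, 4.22-fold and 4.15-fold higher in GC. Top2a had 1 UMI in control and 153 in GC (ratio 34, interval 6.01 to 1351), and Mki67 had 2 UMIs in control and 123 in GC (ratio 13.7, interval 3.703 to 114). Pcna stood at 178 and 212 CPM, Mcm5 at 13.7 and 64.6, and Kif23, Pcna and Slbp had the lowest ratios. At least 50% of the G2/M UMIs of the GC T cells lay in 5 of 165 cells. After thinning, 1 of 45 (2.22%, 0.0563 to 11.8) of control and 13 of 165 (7.88%, 4.26 to 13.1) of GC T cells had at least 2 G2/M genes, shares whose intervals overlapped. Late erythroid cells had 567 and 506 CPM (ratio 0.892, interval 0.812 to 0.981) of G2/M genes, but neither of their clusters was lower. Cluster 6 (99 and 350 cells) had 414 and 423 CPM (ratio 1.02, interval 0.894 to 1.17) and cluster 13 (91 and 96 cells) 789.5 and 949.7 CPM (ratio 1.203, interval 1.04 to 1.39), so the class value moved with the larger part of cluster 6 in GC. The direction of the class also turned when hemoglobin and mitochondrial genes were left out of the denominator. In late erythroid cells Mki67 stood at 83.2 and 53.98 CPM, Top2a at 4.25 and 4.94, Pcna at 5.95 and 3.801 and Mcm5 at 2.55 and 1.14. Mature neutrophils had 132 and 137 CPM (ratio 1.04, interval 0.957 to 1.12).

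**Figure D5:**
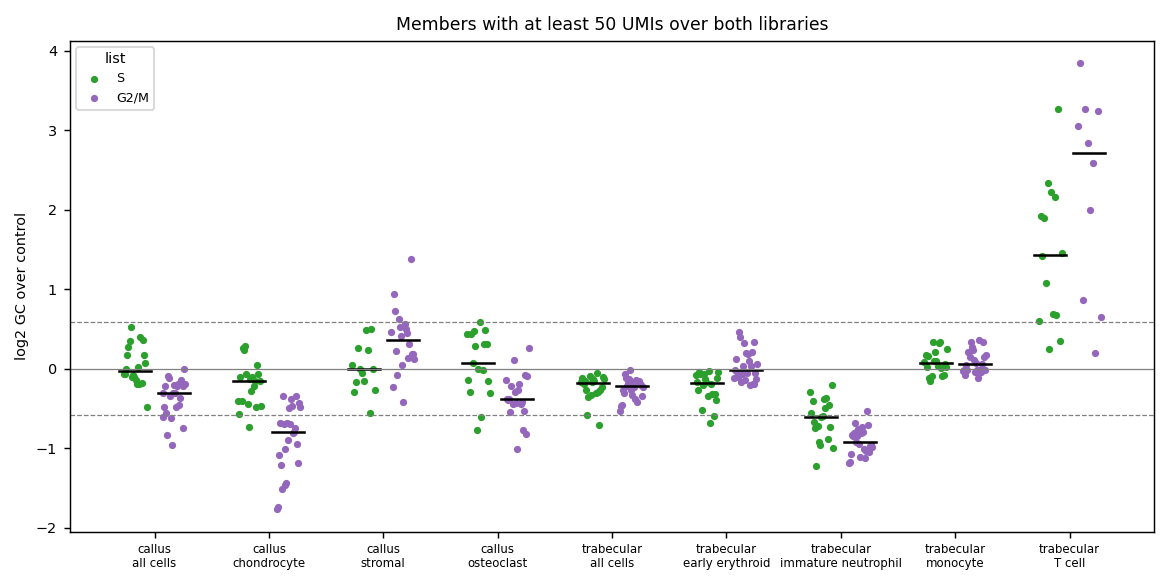
Log2 ratio of GC over control for each member with at least 50 UMIs over both libraries, S genes in green and G2/M genes in purple, in 9 groups of cells, with black bars at list medians and dashed lines at 1.5-fold. G2/M genes lie lower than S genes in callus chondrocytes (medians -0.80 and -0.15) and in immature neutrophils (-0.92 and -0.60), and most members of trabecular T cells lie above the upper line.

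The genes that govern entry into the cycle, a list of 35 G1 cyclins and kinases, inhibitors, Rb, E2F and MuvB factors and mitogenic factors, were counted alongside. In callus as a whole 1 of 33 tested was lower past 1.5-fold, against 1.57% of all genes, and 1 higher, against 1.96%, the first being Cdkn2d, a CDK inhibitor (18.8 and 9.97 CPM, log2 ratio -0.67), and the second Myc, a growth-promoting factor (64.4 and 108 CPM, log2 ratio 0.70), and 19 were below 0 and 14 above. In chondrocytes 2 of 32 were lower, against 2.60% of all genes, Cdkn2d (16.9 and 7.803 CPM, log2 ratio -0.77) and E2f8, a repressor of the E2F family (7.03 and 2.79 CPM, log2 ratio -0.63), and 1 was higher, against 1.51%, Myc (69.5 and 110.5 CPM, log2 ratio 0.63). In trabecular bone as a whole 1 of 31 was lower, against 1.82%, Ccne2, a cyclin of the G1-to-S step (25.6 and 15.2 CPM, log2 ratio -0.59), with 22 below 0 and 9 above. In immature neutrophils 9 of 26 were lower, against 6.97%, namely Ccne2, Cdk4, Cdk6, Cdkn1a, Cdkn2c, E2f7, E2f8, Foxm1 and Myb, with log2 ratios from -1.17 (Cdkn1a, an inhibitor) to -0.62 (Cdkn2c, another inhibitor), and 1 was higher, against 5.91%, the inhibitor Cdkn1c (0.287 and 4.5 CPM, log2 ratio 0.84). Foxm1, an activator of mitotic genes, had 20.4 and 10.1 CPM, log2 ratio -0.75 in that class. The libraries' unequal cluster makeup applies to these values of immature neutrophils too.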

How the data were processed

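The 4 deposited matrices hold UMI counts per gene and barcode, not normalized, which the authors made with Cell Ranger (5.0.1 in the submitters' processing notes, which also name Seurat 3.2.0 and the mm10 build; the matrix header names another version). Barcodes were called as cells from a profile of empty droplets (false discovery rate 0.01, at least 500 UMIs), except in GC callus, where the listed barcodes were taken as called. Cells with under 200 detected genes, over 10% mitochondrial UMIs or a high score against simulated doublets (0.8% removed per 1000 cells) were dropped. Summed totals listed per library ran from 41239842 to 95852254 UMIs.

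Cells were clustered within a tissue on 2000 variable genes, 30 components and 15 neighbors (Leiden resolution 1, with mixed clusters of at least 60 cells divided again). The members, the regulators, other cycle genes and the glucocorticoid response genes were left out of it. A cluster was named from at least 3 markers and left unnamed where its leading genes went against the name. The members and lists were chosen with earlier results of these data known.

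List and gene levels are UMIs per 1000000 of the summed counts of a class, with exact Poisson intervals, ratios have exact conditional intervals, and shares of cells have Clopper-Pearson intervals. Log2 ratios were taken of CPM plus 5 for genes with at least 50 UMIs over both libraries, in classes of at least 15 cells per library. All 45 members are named with their levels, and within a class the 3 highest, the 3 lowest, Mki67, Top2a, Pcna and Mcm5. Regulators are named where they passed 1.5-fold. Scripts used leidenalg 0.10.2, scikit-learn 1.9.0, scipy 1.17.1, numpy 2.4.6 and pandas 2.3.3 in Python 3.11.15, and were tested on simulated data. Alternatives changed calling, filters, doublets, thinning, the denominator, clustering, the pseudocount and the minimum of UMIs.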

Additional observations from a re-analysis of the deposited data

Results flagged for a closer look

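The ratio of GC over control lay on opposite sides of 1 in the 2 tissues, with whole counting intervals, for 5 list values. With 1 library per tissue and treatment the difference between tissues was not tested. In T cells the G2/M genes had a ratio of 0.688 in callus and 4.01 in trabecular bone, and the S genes 0.861 and 2.14. Over all cells the S genes had ratios of 1.13 and 0.826. In mast cells or basophils, with 18 to 42 cells per library, the G2/M genes had ratios of 0.629 and 1.596, and in the monocyte class 0.548 and 1.07. Cenpa alone made 76.6% of the G2/M UMIs of control callus monocytes. The 2 monocyte clusters of trabecular bone went in opposite directions, with ratios of 0.924 (cluster 9) and 1.38 (cluster 7).

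Droplets without a cell also held members. In GC trabecular bone they gave 1393 CPM of S genes (1292 to 1499) and 1628 CPM of G2/M genes (1519 to 1743), above those of control trabecular bone (911.5 and 1249 CPM). Droplets of control callus gave 337 and 259 CPM, and those of GC callus were not analysed here. The part of this free RNA in the class levels was not tested. The mature neutrophil level (106 CPM of S and 132 CPM of G2/M genes in control trabecular bone) lay below that of the droplets. Whether subtracting that level measures the free RNA was not tested.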

How the results depend on the processing

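No paired analysis was possible because each tissue and treatment has 1 library. Log2 ratios of GC over control are given in the order callus S, callus G2/M, trabecular S and trabecular G2/M, for which the reported values are 0.17, -0.54, -0.28 and -0.29. Of 48 alternative values of these ratios 12 moved by less than the counting error, 35 moved further and 1 changed direction. With barcodes above the knee only, the values that moved were 0.11 (callus S), -0.58 (callus G2/M), -0.24 (trabecular S) and -0.25 (trabecular G2/M). With no doublets removed, the values that moved were 0.12 (callus S), -0.65 (callus G2/M), -0.30 (trabecular S) and -0.32 (trabecular G2/M). With cells thinned to 1000 UMIs, the values that moved were 0.29 (callus S), -0.31 (callus G2/M), -0.42 (trabecular S) and -0.51 (trabecular G2/M). As a mean over cells, the values that moved were 0.34 (callus S), -0.17 (callus G2/M), -0.40 (trabecular S) and -0.41 (trabecular G2/M). Divided by the median ratio of all genes, the values that moved were 0.14 (callus S), -0.57 (callus G2/M), -0.25 (trabecular S) and -0.26 (trabecular G2/M). Without Pcna, the value that moved was 0.065 (callus S). With at most 5% mitochondrial UMIs, the values that moved were -0.58 (callus G2/M) and -0.31 (trabecular G2/M). With 1.6% doublets per 1000 cells, the value that moved was -0.42 (callus G2/M). With the mature neutrophil level taken without cluster 12 and subtracted, the value that moved was -0.89 (callus G2/M). With at least 500 genes per cell, the values that moved were -0.22 (trabecular S) and -0.25 (trabecular G2/M). Without hemoglobin and mitochondrial genes in the denominator, the values that moved were -0.23 (trabecular S) and -0.24 (trabecular G2/M). With the mature neutrophil level subtracted, the values that moved were -0.36 (trabecular S) and -0.31 (trabecular G2/M). Without Mki67, the value that moved was -0.25 (trabecular G2/M). Without the clusters of 1 library, the values that moved were 0.11 (callus S), -0.21 (trabecular S) and -0.21 (trabecular G2/M). Members lower past 1.5-fold numbered 5 in callus and 1 in trabecular bone, and 9 and 2 with a pseudocount of 1 CPM, 1 and 0 with 20 CPM, and 0 and 0 at 2-fold. The share of all genes under these other settings is not given, so the changed counts cannot be set against a background.

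Of 309 alternative class ratios 219 stayed within counting error, 77 moved and 13 changed direction. The S log2 ratio of callus all cells, 0.17, became -2.14 (mature neutrophil level without cluster 12 subtracted). The level subtracted in GC, 355 CPM, was near the library's 379.6 CPM, so the -2.14 is not a measure of the S genes. The S log2 ratio of callus chondrocyte cells, -0.14, became 0.10 (cell cycle genes kept in the clustering), 0.060 (cells thinned to 1000 UMIs), 0.036 (mean over cells), 0.12 (cluster 2 counted as chondrocytes) and 0.14 (without cluster 8). The G2/M log2 ratio of callus hypertrophic chondrocyte cells, -0.39, became 0.32 (Leiden resolution 0.5) and 0.61 (cells thinned to 1000 UMIs). The G2/M log2 ratio of callus stromal or skeletal progenitor cells, 0.39, became -0.042 (cells thinned to 1000 UMIs) and -3.56 (mature neutrophil level subtracted). The G2/M log2 ratio of trabecular bone late erythroid cells, -0.16, became 0.32 (at least 500 genes), 0.12 (hemoglobin and mitochondrial genes left out of the denominator) and 0.14 (divided by the median ratio of all genes). The S log2 ratio of trabecular bone immature neutrophil cells, -0.80, became 0.15 (clusters 8, 16 and 26). The mature neutrophil level of GC callus (403.6 CPM of G2/M genes) was carried by cluster 12, which gave 599 of its 792 UMIs, so subtracting it removed that cluster's transcripts along with any free RNA and the -3.56 is not a measure of the stromal cells. With the level taken without cluster 12 (137.4 CPM), the stromal G2/M log2 ratio was 0.70. Shares of cells moved beyond their interval in 155 of 324 alternatives. Settings on clusters held by 1 library, clusters 2, 3, 8 and 12, and clusters 8, 16 and 26 were chosen after seeing the data. The cause of these changes was not tested. Depth limited the small classes, where members rested on few cells, and the single library per group limited every comparison.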
